A study of Drosophila melanogaster with 24 samples.

Results

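The comparison set the 3 heat selected lines of Drosophila melanogaster against the mean of 6 other regimes of the same selection experiment. It asked which transcripts stood apart after selection for heat resistance once the reference was other stress regimes and not the unselected stock. The heat selected group held 3 lines selected for heat resistance. The 6 regimes were lines selected for resistance to cold, to knock-down, to starvation or to desiccation, lines selected for longevity, and constant 30 lines, whose flies were held at 30 degrees per the labels. Each regime held 3 lines, and its 3 arrays were averaged before the 6 means were averaged with equal weight. The 3 non-selected control lines were not part of the difference. They entered the filter on low values and the estimate of the spread, and are given beside the difference. The comparison therefore used 21 of the 24 arrays, and 9023 of the 13966 probe sets that were not spike-in or control probe sets had a log2 value above 4 on at least 3 arrays and were tested.

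All arrays came from adult whole females, 10 flies per vial, with 1 array per line. Replicates are separate lines of a regime per the labels, and each p-value is about the spread from line to line. The sources used here do not state the kind of knock-down, the age of the females or how long selection lasted. A whole fly mixes all tissues, so fewer cells of a type and less RNA per cell cannot be told apart. The female label was checked against marker genes. The yolk protein genes Yp1, Yp2 and Yp3 lay between 13.38 and 14.85 on the heat selected arrays, against 13.68 to 14.90 on the 18 arrays of the 6 regimes. Of 22 genes of testis and male accessory gland on the array, 3 passed the filter. The sperm protein gene ProtB and the seminal fluid gene Acp26Aa stayed between 4.16 and 4.73 in heat selected females, against 3.90 to 4.48 in the other regimes. Both were close to the filter of 4, and both were nonetheless called higher, by 0.29 (adjusted p = 0.0254) and 0.23 (adjusted p = 0.0324). Without heat selected replicate 2 the differences were 0.16 for both. The germ cell gene bol, which passed the filter too, differed by 0.29 and was not called.

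Flies meet heat with heat shock proteins, chaperones that hold or refold damaged proteins, and many of their genes are induced within minutes of a hot exposure. The labels name no heat treatment of the heat selected flies before sampling, and transcript levels, not resistance, were measured. The flight muscles fill much of the thorax and hold the densest mitochondria of the fly, while the ovary is a large part of a female and its follicle cells lay the vitelline membrane and then the chorion of the eggshell. The fat body, the counterpart of liver and fat tissue, stores sugar and lipid and secretes most proteins of the blood.

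Muscle and mitochondrial genes were higher in heat selected females than in the other 6 regimes, and some eggshell and gut protease genes and the storage protein gene Lsp2 were lower. Limma called 998 of the 9023 probe sets at an adjusted p under 0.05, which is 11.1% of those tested, and 2807 (31.1%) had an unadjusted p under 0.05. The called probe sets named 825 single genes. Of them 632 probe sets were higher (7.00% of all tested) and 366 were lower (4.06%). With each array centred on its median the balance turned, with 235 higher and 486 lower. Most differences were small. The median was 0.26 on the log2 scale among the probe sets called higher and -0.32 among those called lower, and 112 differed by at least 0.5. Only 10 differed by at least 1, 5 in each direction. The median over all tested probe sets was 0.04.

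These calls leaned on heat selected replicate 2. Without it, 2 probe sets (0.0222%) were called, although all 998 kept their direction and 776 of them had an unadjusted p under 0.05, as did 1190 (13.2%) of all tested. The medians of the called probe sets were then 0.20 for those higher and -0.25 for those lower. In 773 of the 998 calls, replicate 2 was the most extreme of the 3 heat selected arrays. It also stood at one end of a measure of RNA quality, the 3 prime minus 5 prime signal of the control genes for actin, eIF-4a and GAPDH. That difference was 1.34 in heat selected replicate 2, 1.62 and 1.68 in replicates 1 and 3, and 1.50 to 1.93 on the 18 arrays of the other regimes. With this measure as a covariate, again 2 probe sets were called. Limma's array weights were lowest for cold replicate 3 (0.434), heat selected replicate 2 (0.470) and knock-down replicate 2 (0.487). With these 3 low-weight arrays left out, 146 probe sets were called, 68 higher and 78 lower, and 140 of them were among the 998.

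**Figure D1:**
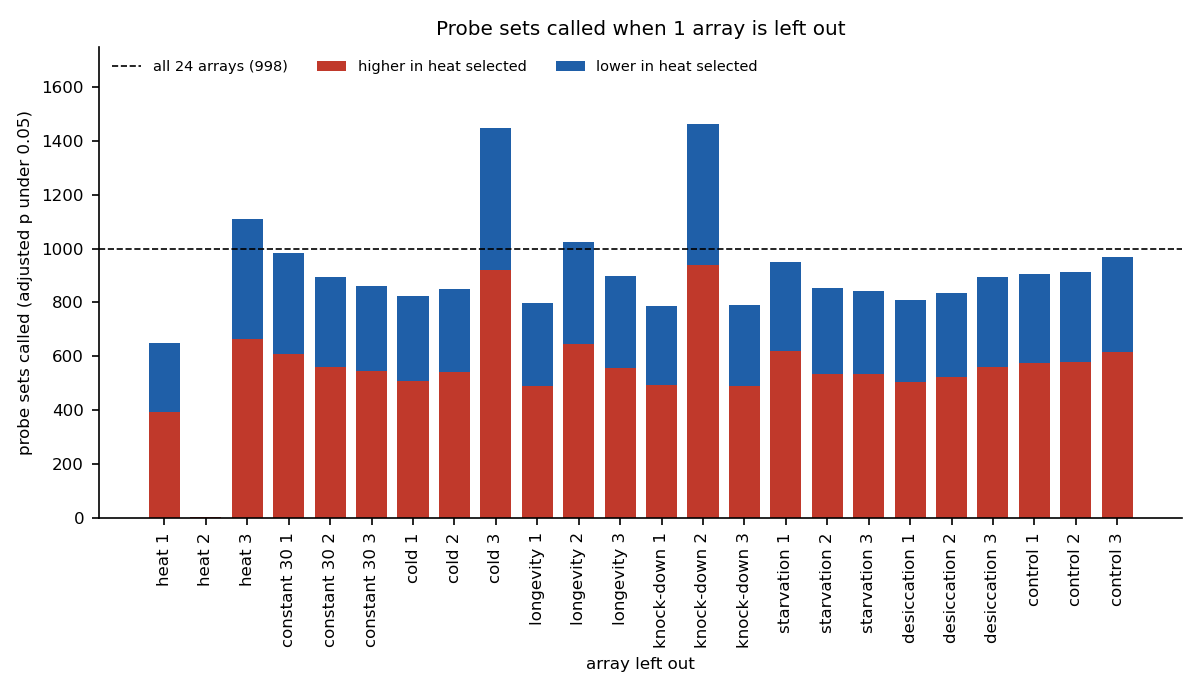
Each bar gives the number of probe sets called at an adjusted p under 0.05 when the array named below it is left out, red for higher and blue for lower in heat selected females, and the dashed line marks the 998 calls with all 24 arrays. The bar for heat selected replicate 2 stands at 2 calls, and the bars for the 18 arrays of the other regimes run between 787 and 1464.

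The genes of the contractile apparatus gave the largest rises. Strn-Mlck, a giant muscle protein with titin-like and kinase domains, had log2 values of 7.40, 7.64 and 6.42 in heat selected females, against a lowest value of 3.23, a median of 5.00 and a highest of 7.16 on the 18 other arrays. Replicates 1 and 2 lay above all 18, and replicate 3 lay inside their range. The difference was 2.10 ± 0.53 (SE, adjusted p = 0.0230), a 4.29-fold rise. A second, slightly brighter probe set of Strn-Mlck differed by 0.19 and was not called. The flight muscle thick filament gene fln measured 10.30, 9.77 and 8.89, against 6.16, 8.21 and 9.50 as the lowest, median and highest of the 18 arrays, a difference of 1.73 ± 0.48 (adjusted p = 0.0299). As for Strn-Mlck, replicate 3 alone lay inside the range of the other regimes. The myosin light chain gene Mlc1 rose by 0.75 ± 0.23 (adjusted p = 0.0442), with 11.93, 11.81 and 11.03 in heat selected females, against 10.07 to 11.45 on the other arrays. Fhos, a formin that assembles actin filaments of the sarcomere, rose by 0.99 ± 0.22 (adjusted p = 0.0160). It measured 7.45, 8.37 and 7.20 in heat selected females, against 6.20 to 7.52 on the other arrays, so replicate 2 alone lay above them. Without replicate 2 the difference was 0.65 (adjusted p = 0.254). A brighter probe set of Fhos differed by 0.54 and was not called.

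**Figure D2:**
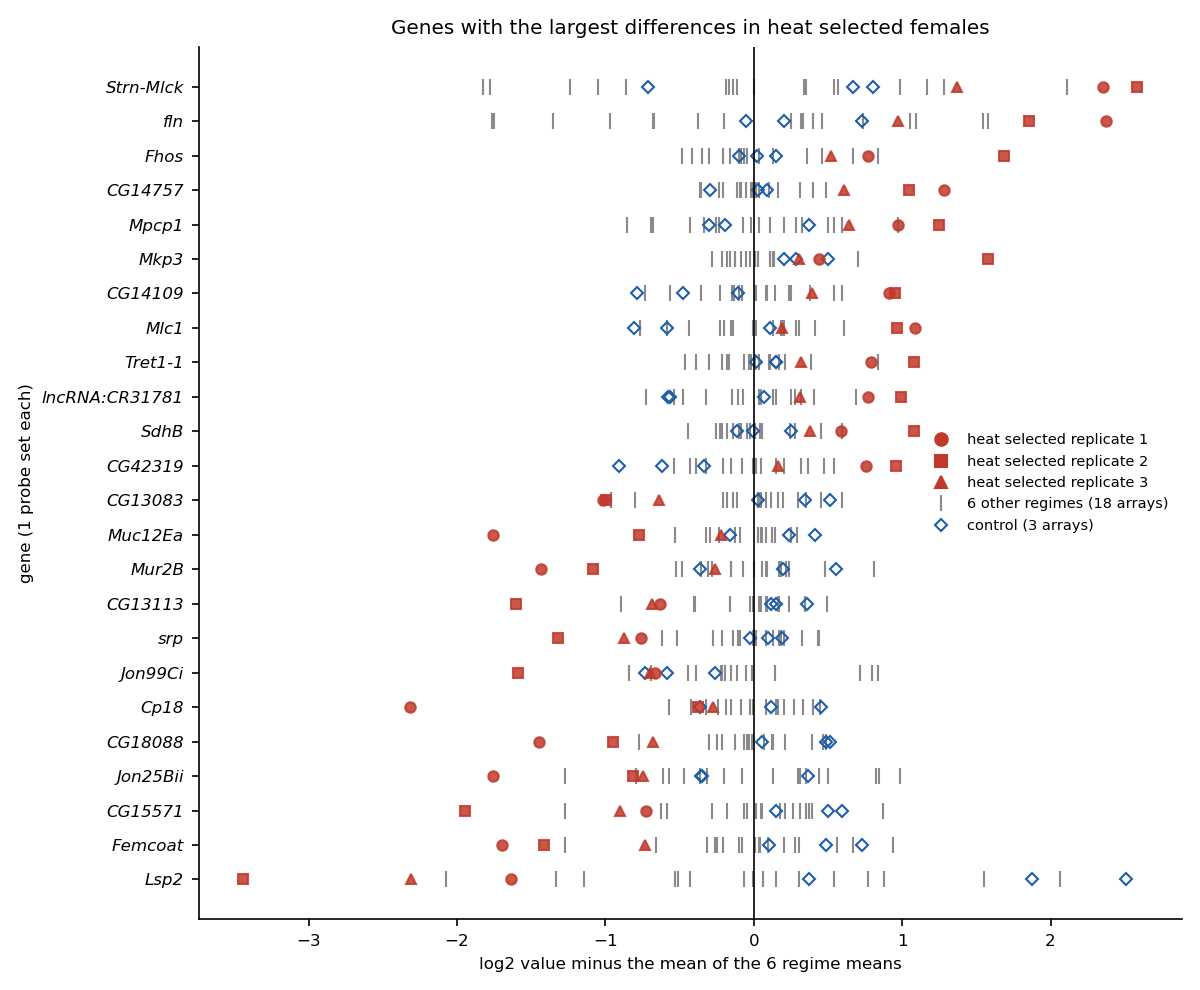
The log2 value of each array is shown minus the mean of the 6 regime means for the 12 largest rises (upper rows) and the 12 largest falls (lower rows), with heat selected arrays in red, the 18 arrays of the other regimes as grey ticks and the 3 control arrays as open blue diamonds. All 3 heat selected arrays of CG14757 lie above, and all 3 of srp below, every grey tick, while most other genes have a heat selected array within the range of the other regimes.

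Among 13 tested genes of the thick and thin filaments, 4 rose (30.8%, against 7.00% of all probe sets tested) and none fell. All 13 lay above 0, and the median difference was 0.45. Act88F, the actin of the flight muscle, rose by 1.70 ± 0.49 (adjusted p = 0.0352), and up, which encodes troponin T, by 0.50 ± 0.15 (adjusted p = 0.0423). The regulatory light chain gene Mlc2 differed by 0.58 and the tropomyosin gene Tm2 by 0.45, and neither was called. Of 10 genes of the Z disc, the titin-like proteins and calcium release, 4 rose (40%), with a median of 0.34. They were Actn (alpha-actinin, 0.30), Obsc (obscurin, 0.71), Zasp52 (0.54) and Mlp60A (a muscle LIM protein, 1.39). RyR, the calcium release channel, differed by 0.59 with an adjusted p of 0.0502. The mean of the filament list was 10.57, 10.40 and 9.82 on the heat selected arrays, against 8.95 to 10.12 on the other 18, with a median of 9.64. Without heat selected replicate 2, the medians of these lists were 0.38 and 0.28. The difference of Mlp60A was 0.75 without heat selected replicate 2, and that of up was 0.32 without replicate 1. With the 3 low-weight arrays left out, Actn alone of these 8 genes was still called.

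The enzymes that feed on and make mitochondrial energy moved with the muscle genes. Of 26 tested subunits of respiratory complex I, 16 rose and none fell, with a median of 0.27. Of 26 subunits of complexes II to V, 18 rose and none fell, with a median of 0.31. The share called higher over all probe sets tested was 7.00%. SdhB, the iron-sulfur subunit of succinate dehydrogenase, had values of 10.58, 11.07 and 10.37, against 9.55, 9.96 and 10.58 as the lowest, median and highest of the other arrays. Its difference was 0.68 ± 0.15 (adjusted p = 0.0145). Replicate 2 alone lay above all 18 arrays, while replicate 1, just below the highest of them, and replicate 3 lay inside their range. ND-75, the largest subunit of complex I, rose by 0.56 ± 0.11 (adjusted p = 0.0112), and its partner subunits ND-39 and ND-51 by 0.42 and 0.35. SdhD, a membrane anchor of complex II, rose by 0.48, Cyt-c1 of complex III by 0.43, COX4 of complex IV by 0.36, and blw, the alpha subunit of ATP synthase, by 0.33. ATPsynbeta, the beta subunit, differed by -0.03 and was not called. Mpcp1, a carrier that brings phosphate into mitochondria, rose by 0.95 ± 0.25 (adjusted p = 0.0273).

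The rise of these subunits was shallow but shared between the 3 lines. The mean of the 26 genes of complexes II to V was 11.21, 11.36 and 11.09 in heat selected females, against 10.64, 10.89 and 11.20 as the lowest, median and highest of the other 18 arrays. Cold replicate 3, the highest of these, lay between the heat selected arrays, so the groups overlapped. Without heat selected replicate 2, both lists had a median of 0.23, and 19 and 16 of their 26 genes had an unadjusted p under 0.05, for complex I and complexes II to V in that order. With the 3 low-weight arrays left out, 3 and 5 genes were still called. The 64 tested proteins of the mitochondrial ribosome, which make the subunits encoded in the mitochondrial genome, had a median of 0.01. In each direction 1 gene was called (1.56%), below the shares of all probe sets tested (7.00% higher, 4.06% lower).

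Some enzymes upstream of respiration were higher too. In the tricarboxylic acid cycle and pyruvate dehydrogenase list, 6 of 11 genes rose (54.5%, against 7.00% of all probe sets tested). Among them were the 3 subunits of isocitrate dehydrogenase Idh3a, Idh3b and Idh3g, by 0.44, 0.48 and 0.54. The acetyltransferase subunit gene muc rose by 0.47 and the aconitase gene mAcon1 by 0.34. In the glycolysis list, 5 of 10 genes rose (50%), led by the aldolase gene Ald1 with 0.45 ± 0.11 (adjusted p = 0.0223). The phosphofructokinase gene Pfk rose by 0.33. Gpdh1, the cytosolic glycerol phosphate dehydrogenase, fell by 0.22, with an adjusted p just under the threshold of 0.05. The medians of these lists were 0.18 and 0.17. With the 3 low-weight arrays left out, 1 gene of the tricarboxylic acid cycle list and none of the glycolysis list was still called. For the mean of each list, heat selected replicate 2 alone lay above all 18 other arrays. Cold replicate 3, the highest of these, lay above heat selected replicates 1 and 3 in both lists.

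Some genes of sugar digestion and of trehalose and glycogen metabolism were also higher. Of 13 maltase and amylase genes 3 rose (23.1%, against 7.00% of all probe sets tested) and none fell, with a median of 0.35. Mal-A3 rose by 0.68, Mal-A4 by 0.62 and Mal-B2 by 0.58, and Mal-A1 differed by 0.53 without being called. Mal-A3 measured 6.32, 5.25 and 5.01 in heat selected females, against 4.40 to 5.43 in the other regimes, so replicate 1 alone lay above them. The list's median was 0.51 without heat selected replicate 2 and 0.26 without replicate 1. Without replicate 1 the differences of Mal-A3 and Mal-A4 were 0.29 and 0.38, and with the 3 low-weight arrays left out none of the 13 genes was called. Tps1, which makes trehalose, the sugar of insect blood, rose by 0.38 ± 0.11 (adjusted p = 0.0309), the glycogen branching enzyme gene AGBE by 0.24 and the glycogen phosphorylase gene Glyp by 0.17. AGBE differed by 0.13 without heat selected replicate 2, and Glyp by 0.10 without replicate 1. One probe set of the trehalose transporter gene Tret1-1 rose by 0.73 ± 0.15 (adjusted p = 0.0112). Its values were 6.97, 7.27 and 6.51, against 5.72 to 7.02 on the other arrays. The brighter probe set of Tret1-1 differed by 0.36 and was not called.

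**Figure D3:**
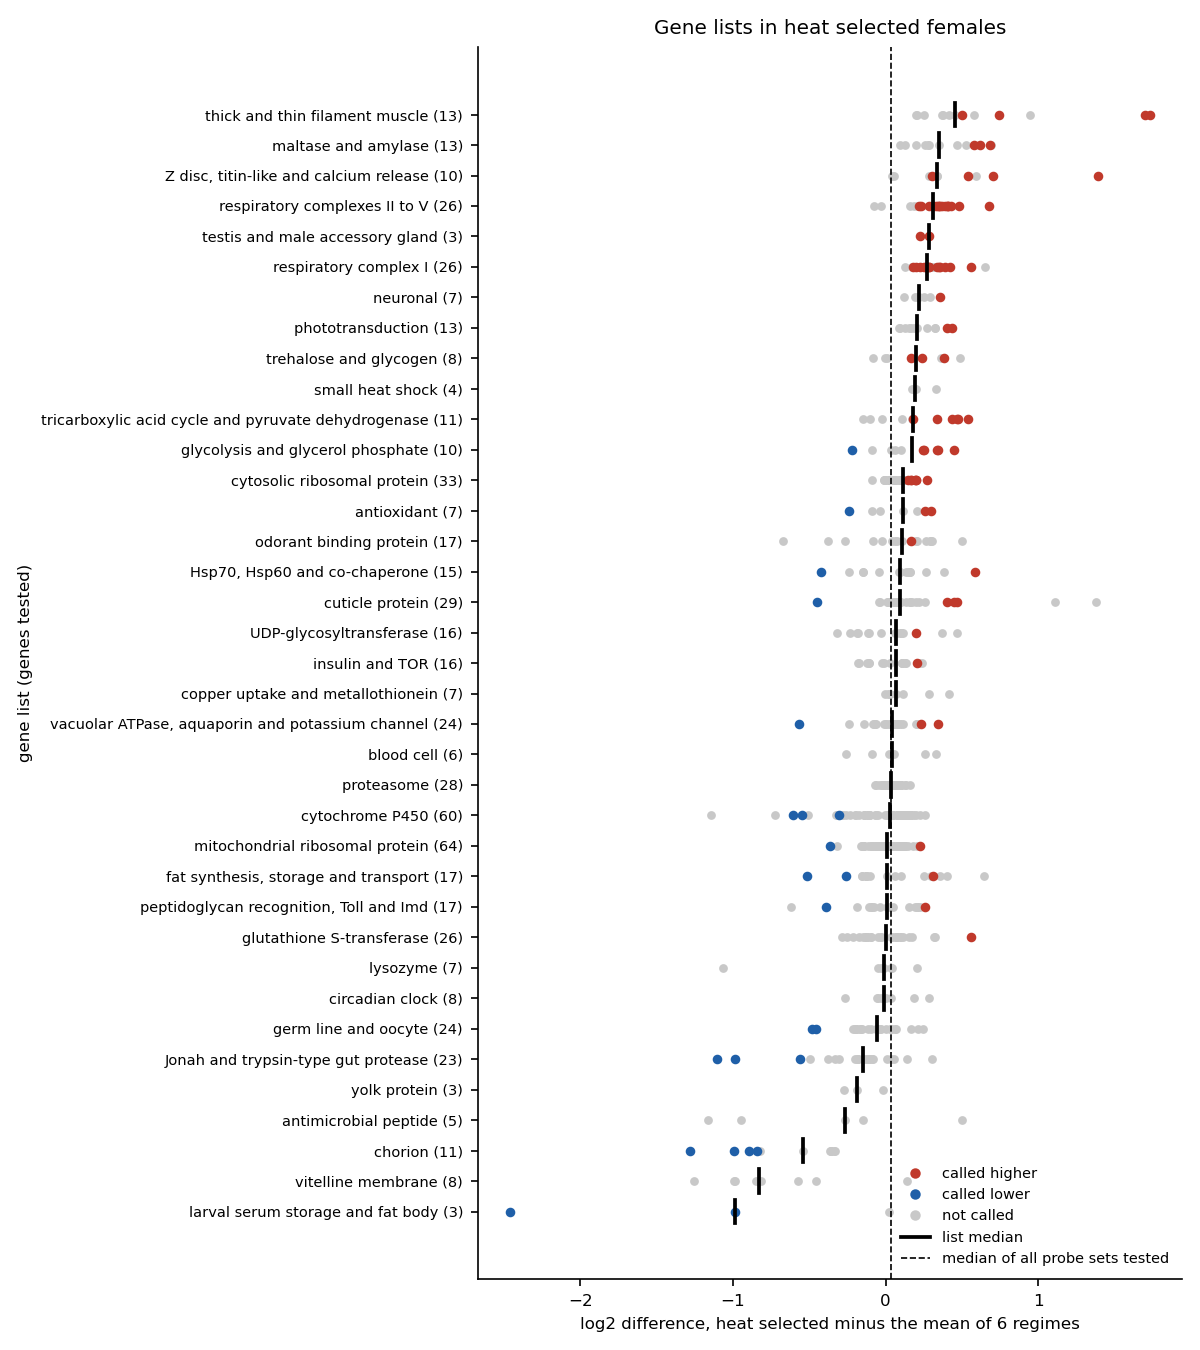
Every tested gene of 37 lists is a dot at its log2 difference between heat selected females and the mean of 6 regimes, red if called higher, blue if called lower and grey if not called, with a black bar at the list median and a dashed line at the median of all tested probe sets. The list medians run between 0.45 for thick and thin filament genes and -0.98 for 3 storage protein and fat body genes.

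Eggshell genes were lower. All 11 tested chorion genes lay below 0, 4 of them fell, and the median difference was -0.54, while 4.06% of all probe sets were called lower. Femcoat, an eggshell protein gene of the follicle cells, measured 6.69, 6.97 and 7.65 in heat selected females, against 7.11, 8.41 and 9.32 as the lowest, median and highest of the other arrays. Replicates 1 and 2 lay below all 18 arrays and replicate 3 within their lower part. The difference was -1.28 ± 0.26 (adjusted p = 0.0112). Cp16 fell by 0.89 ± 0.22 (adjusted p = 0.0209) and Cp19 by 0.84 ± 0.21 (adjusted p = 0.0226). Cp18 fell by 0.99 ± 0.27 (adjusted p = 0.0299), and its low mean came from replicate 1, since it measured 10.22, 12.15 and 12.26 in heat selected females, against 11.96 to 12.98 elsewhere. Without heat selected replicate 1 its difference was -0.33 (adjusted p = 0.249), that of Cp16 was -0.45 (adjusted p = 0.133) and that of Cp19 was -0.55 (adjusted p = 0.127), while Femcoat was still called at -1.07 (adjusted p = 0.0414). Femcoat, Cp16 and Cp19 were still called with the 3 low-weight arrays left out.

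The earlier coat of the egg, the vitelline membrane, gave larger but more scattered differences. Of its 8 tested genes 7 lay below 0, none was called, and the median was -0.83. The mean of the list was 8.29 and 8.59 in heat selected replicates 1 and 2 and 10.07 in replicate 3, against 8.77 to 10.39 on the other 18 arrays. Replicate 3 thus lay among the higher arrays of the other regimes and the remaining 2 below all of them. Vm26Ac, for example, measured 5.71, 6.21 and 8.37, against 6.74 to 8.98, and its difference was -1.25 with an adjusted p of 0.0743. Without replicate 3 the list median was -1.36, and without replicates 1 or 2 it was -0.47 or -0.53. The 3 yolk protein genes had a median of -0.18, which was -0.02 without heat selected replicate 1 and -0.39 without replicate 3, and none was called. Among 24 genes of the germ line and oocyte the median was -0.06 and 2 fell (8.33%, against 4.06% of all probe sets tested). The translational regulator gene orb fell by 0.45 ± 0.10 (adjusted p = 0.0130) and the cyclin gene CycE by 0.48 ± 0.10 (adjusted p = 0.0149). Both were still called with the 3 low-weight arrays left out.

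**Figure D4:**
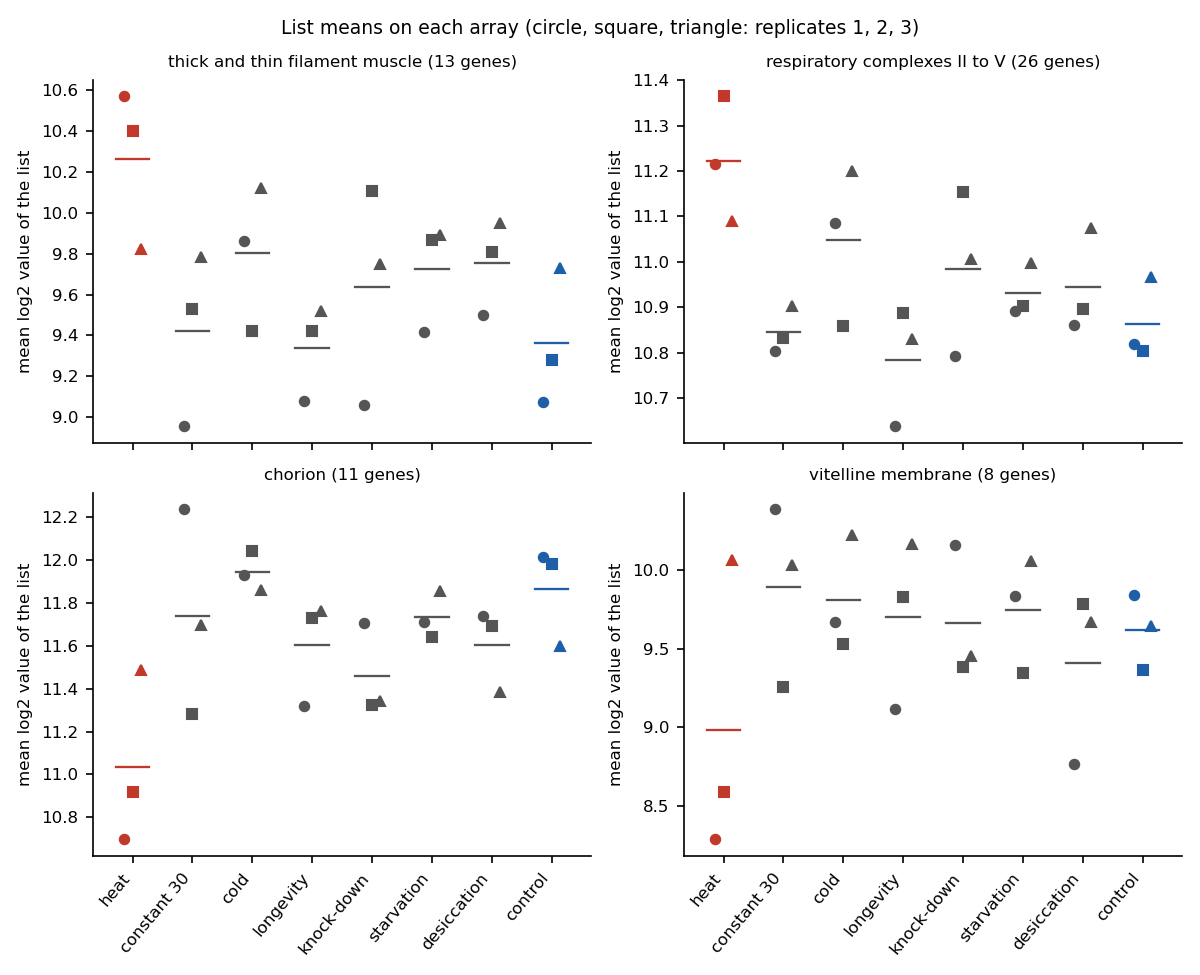
The mean log2 value of each of 4 gene lists is plotted for every array, grouped by regime, with circles, squares and triangles for replicates 1, 2 and 3 and a line at each group mean. Heat selected replicate 3 lies inside the range of the other regimes in all 4 panels, and replicates 1 and 2 lie above it for muscle and respiratory genes and below it for chorion and vitelline membrane genes.

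Lsp2, which encodes a storage protein of larval serum made by the fat body, fell most of all called genes. Its log2 values were 6.37, 4.57 and 5.70 in heat selected females, against 5.94, 8.04 and 10.07 as the lowest, median and highest of the other 18 arrays. Knock-down replicate 2 was the array at 5.94, and it alone overlapped the heat selected range. The difference was -2.46 ± 0.59 (adjusted p = 0.0204), which is 5.51-fold lower. The control mean was 9.60, above each of the 6 regime means, which ran between 7.14 in knock-down and 8.44 in longevity lines. With the 3 low-weight arrays left out the Lsp2 difference was -2.11, with an adjusted p of 0.114.

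The GATA factor gene srp, needed for fat body and blood cells, gave a tighter fall. It measured 6.72, 6.17 and 6.61 in heat selected females, against 6.87, 7.49 and 7.93 as the lowest, median and highest elsewhere, so all 3 heat selected arrays lay below all 18. The difference was -0.98 ± 0.14 (adjusted p = 0.00290), and -0.87 (adjusted p = 0.0117) with the 3 low-weight arrays left out. Of 17 genes of fat synthesis, storage and transport, 2 fell (11.8%) and 1 rose (5.88%), with a median of 0.01. Over all probe sets tested, 4.06% were called lower and 7.00% higher. The lipoprotein gene apolpp fell by 0.52 ± 0.10 (adjusted p = 0.0112). The lipase gene bmm, which breaks down stored fat, fell by 0.26, with 7.99, 7.81 and 7.88 in heat selected females, against 8.02 to 8.35 elsewhere, below all 18. SREBP, a regulator of lipid synthesis genes, rose by 0.31, and its difference was 0.21 without heat selected replicate 2. Among 6 blood cell genes none was called, and the median was 0.04.

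Gut protease genes moved unevenly. Of 23 Jonah and trypsin-type proteases, 3 fell (13.0%, against 4.06% of all probe sets tested) and the median was -0.15. Jon25Bii fell by 1.11 ± 0.35 (adjusted p = 0.0489), with values of 7.12, 8.06 and 8.13, against 7.60 to 9.87 elsewhere. Jon99Ci fell by 0.99 ± 0.30 (adjusted p = 0.0400) and Jon25Bi, the gene next to Jon25Bii, by 0.56, which was -0.23 without heat selected replicate 1. The proteases are similar in sequence, so the probes of one gene can pick up signal of another. Heat selected replicate 1 set the list's direction. The mean of the list was 8.95, 9.55 and 9.64 in heat selected females, against 9.29 to 9.90 elsewhere, and the median difference was 0.08 without replicate 1. Apart from the proteases, the mucin genes Mur2B and Muc12Ea fell by 0.93 ± 0.23 (adjusted p = 0.0209) and 0.92 ± 0.20 (adjusted p = 0.0155). The tissue that their signal came from was not tested. Muc12Ea measured 11.90, 12.88 and 13.44, against 13.13 to 13.95, so its replicate 3 overlapped the other regimes. Without replicate 1 the Muc12Ea difference was -0.50 (adjusted p = 0.0740).

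Few heat shock genes were called in these females. Of 15 tested genes for Hsp70, Hsp60 and co-chaperones, 1 rose and 1 fell, with a median of 0.10. The share was 6.67% in each direction, against 7.00% higher and 4.06% lower of all probe sets tested. In this list 10 genes lay above 0 and 5 below. An unadjusted p under 0.05 was found for 8 of the 15, and for 31.1% of all probe sets tested. Hsc70-5, the chaperone of the mitochondrial matrix, fell by 0.42 ± 0.10 (adjusted p = 0.0168), with 9.11, 8.65 and 8.98 in heat selected females, against 8.95 to 9.61. Hsc70-1, a cognate of Hsp70, rose by 0.58 ± 0.16 (adjusted p = 0.0274), and replicate 2 at 6.20 was the highest, beside 5.53 and 5.20 in replicates 1 and 3 and 4.55 to 5.50 elsewhere. Without replicate 2 the Hsc70-1 difference was 0.30. Hsf, the factor that turns on heat shock genes, differed by -0.15, Hsc70-4, another cognate, by -0.04, and Hsp60A by 0.09, and none was called. The 4 tested small heat shock genes all lay above 0, by 0.17 to 0.33, with a median of 0.19. None was called, and none had an unadjusted p under 0.05. Hsp26 measured 12.65, 13.12 and 12.91, against 11.94 to 13.10. The inducible Hsp70 genes, Hsp83, Hsp22 and Hsp23 were named alone by no tested probe set and are not analysed here.

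Among signalling and sensory genes the differences were scattered. Mkp3, a phosphatase of the ERK kinase, rose by 0.77 ± 0.18 (adjusted p = 0.0170), and its heat selected values ran between 5.86 in replicate 3 and 7.13 in replicate 2, against 5.27 to 6.26. Replicate 2 alone lay above the other regimes, and the difference was 0.37 without it. The brighter probe set of Mkp3 differed by 0.03. In the phototransduction list, 2 of 13 genes rose (15.4%, against 7.00% of all probe sets tested). They were the scaffold gene inaD (0.44) and the G protein gene Gbeta76C (0.40). All 13 lay above 0, with a median of 0.21. The 7 tested neuronal genes also lay above 0, with a median of 0.22, as did 5385 of all 9023 probe sets. Of the 7, 1 was called (14.3%), the synaptic vesicle gene nSyb, which rose by 0.36 ± 0.08 (adjusted p = 0.0155). For the means of the phototransduction and neuronal lists, heat selected replicate 3 lay inside the range of the other regimes. With the 3 low-weight arrays left out, no gene of either list was called. GstS1, a glutathione transferase abundant in flight muscle, rose by 0.56 ± 0.10 (adjusted p = 0.00962). It was the only 1 of 26 of its family called, a share (3.85%) not above the 7.00% of all probe sets tested. In the vacuolar proton pump list, VhaSFD rose by 0.34, Vha100-2 rose by 0.23 and VhaAC45 fell by 0.57, out of 24 genes with a median of 0.04. The shares of 8.33% higher and 4.17% lower were near those of all probe sets tested (7.00% and 4.06%). The VhaAC45 difference was -0.31 without heat selected replicate 2.

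The protein synthesis and turnover lists separated. Of 33 cytosolic ribosomal protein genes, 7 rose (21.2%, against 7.00% of all probe sets tested) and none fell, with a median of 0.12. The shift was small for each gene and even between the lines, as RpL37A shows with 12.38, 12.36 and 12.35, against 12.08 to 12.28 elsewhere. RpL37A, RpS21 and RpS12, 3 of the 33 genes, lay above all 18 arrays, as did 59 (0.654%) of all probe sets tested. Of these 3, RpS12, with a difference of 0.13, was not called. The mean of the list lay above all 18 arrays in heat selected replicate 1 alone, and knock-down replicate 2 was the highest of the 18. With the 3 low-weight arrays left out, 1 gene of the list was still called. RpL3 rose most of the list, by 0.27 ± 0.05 (adjusted p = 0.0106). None of 28 proteasome genes was called, and their median was 0.03. In 60 cytochrome P450 genes the median was 0.03 and 3 fell, a share (5%) near the 4.06% of all probe sets tested. Cyp4ac3 fell by 0.60, Cyp4ad1 by 0.55 (-0.83 without heat selected replicate 3) and Cyp18a1, which inactivates the moulting hormone, by 0.30.

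Several genes that carry only a CG or CR number stood among the largest differences. CG14757 measured 7.17, 6.94 and 6.50 in heat selected females, against 5.53, 5.88 and 6.38 as the lowest, median and highest elsewhere, so all 3 lay above all 18. Its difference was 0.98 ± 0.15 (adjusted p = 0.00396), and 0.94 without heat selected replicate 2. CG14109 rose by 0.75, CG42319 by 0.63 and the long non-coding RNA gene lncRNA:CR31781 by 0.69, and second probe sets of CG42319 and lncRNA:CR31781 rose too, by 0.26 and 0.57. CG15571 fell by 1.19 ± 0.25 (adjusted p = 0.0135), CG18088 by 1.03 ± 0.18 (adjusted p = 0.00962), CG13113 by 0.97 ± 0.18 (adjusted p = 0.0101) and CG13083 by 0.88 ± 0.17 (adjusted p = 0.0106). CG13084, the gene next to CG13083, fell by 0.70. Of the named genes of this paragraph, CG14757, CG18088 and CG13083 were still called with the 3 low-weight arrays left out.

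In 108 probe sets (1.20% of those tested) all 3 heat selected arrays lay outside the range of all 18 other arrays, 59 above it (0.654%) and 49 below it (0.543%). Of these, 94 were called. The following genes were chosen after their values were seen. CG15412, which carries only a CG number, measured 4.43, 4.58 and 4.57, against 3.93, 4.03 and 4.15 as the lowest, median and highest elsewhere. This was a difference of 0.48 ± 0.06 (adjusted p = 0.0002). Its levels are close to the filter of 4. Cdk5, a kinase known from neurons, measured 6.70, 6.44 and 6.93, against 7.19, 7.33 and 7.66, a difference of -0.67 ± 0.08 (adjusted p = 0.0002). These were the 2 genes still called without heat selected replicate 2, with differences of 0.46 and -0.55.

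A further 8 single genes outside the range of the 18 arrays were chosen in the same way. The polarity scaffold gene baz fell by 0.61, with 6.40, 6.12 and 6.69, against 6.80 to 7.35. The transcription factor gene lola fell by 0.54 on 1 probe set, while 5 other tested probe sets of it differed by 0.07 to 0.21 and were not called. The Polycomb group gene Scm fell by 0.32, the phospholipid scramblase gene scramb1 by 0.43, lili by 0.38 and Pcif1 by 0.32. Arc1, a neuronal gene whose protein forms capsids, rose by 0.59, with 5.85, 6.12 and 6.06, against 5.05 to 5.73. Msp300, a protein that ties muscle nuclei to the actin skeleton, rose by 0.44 on a dim probe set with 4.31, 4.64 and 4.25, against 3.80 to 4.22, and a brighter probe set differed by 0.70 without being called. The adjusted p of these 8 genes lay between 0.00962 and 0.0112.

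Few differences among the 6 regimes behind the mean were called. The F test over the 6 regime means called 1 probe set (0.0111%), of egh, a glycosyltransferase gene, and 426 (4.72%) had an unadjusted p under 0.05. Regime means of genes that it did not call could still lie far apart. Those of fln ran between 7.08 in longevity and 8.87 in desiccation lines. Those of Strn-Mlck ran between 4.30 in longevity and 6.02 in cold lines. Egh had a mean of 9.63 in desiccation lines and 9.88 to 10.14 in the other 5 regimes, and its heat selected mean was 10.08. None of the 998 called probe sets was called by the F test. The distance of the heat selected lines was not equal to every regime. For the thick and thin filament list, the median difference was 0.63 from constant 30, 0.60 from longevity, 0.52 from desiccation, 0.38 from cold, 0.36 from starvation and 0.33 from knock-down lines. For the chorion list it was -0.79 from cold, -0.62 from constant 30, -0.57 from starvation, -0.55 from longevity, -0.46 from desiccation and -0.38 from knock-down lines. Without knock-down replicate 2 the distance from knock-down was 0.57 for the filament list and -0.23 for the chorion list, and without cold replicate 3 the distance from cold was 0.48 and -0.77. These differences share the 3 heat selected arrays.

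**Figure D5:**
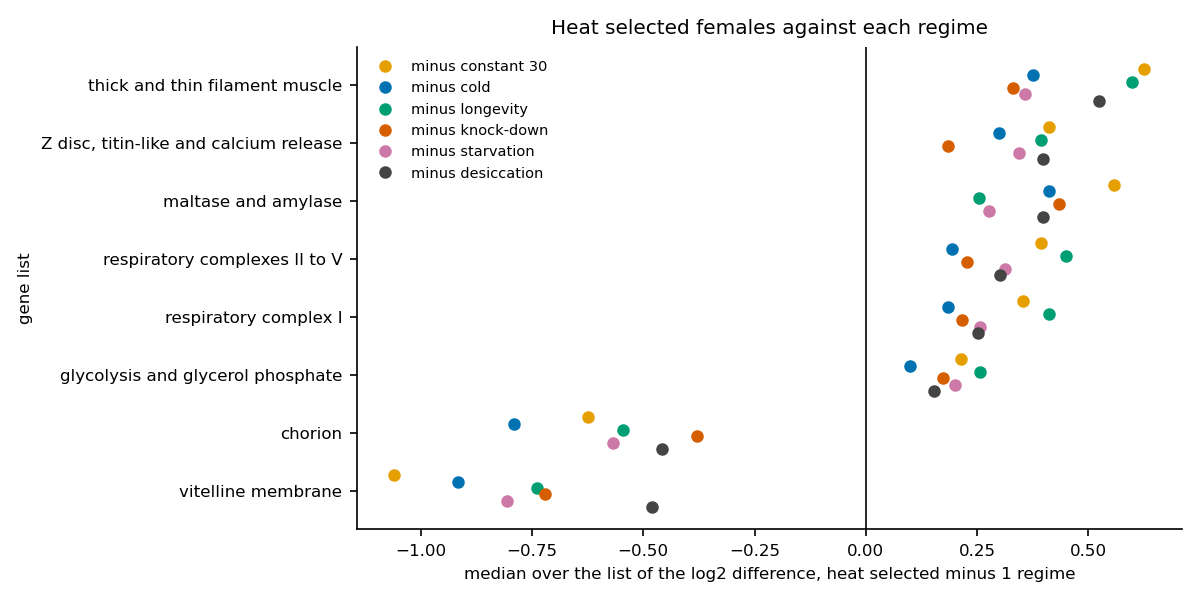
For 8 gene lists, each dot gives the median log2 difference between heat selected females and 1 of the other 6 regimes. The thick and thin filament dots run between 0.33 for knock-down and 0.63 for constant 30, and the chorion dots between -0.79 for cold and -0.38 for knock-down, while knock-down without its replicate 2 would lie at 0.57 and -0.23.

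Over the called probe sets, the regime mean nearest to heat selected was most often cold. Knock-down came next, and its count was the same as that of constant 30 once knock-down replicate 2 and cold replicate 3 were taken out. Cold was nearest in 301 (47.6%) of the 632 probe sets called higher and knock-down in 196 (31.0%). Over all tested probe sets, cold had the highest of the 6 means in 23.5% and knock-down in 20.5%. Among the 366 called lower, cold was nearest in 206 (56.3%) and knock-down in 100 (27.3%), while these regimes had the lowest mean in 19.4% and 12.6% of all tested probe sets. With cold replicate 3 and knock-down replicate 2 taken out of their means, cold was nearest in 209 (33.1%) of those called higher and 132 (36.1%) of those called lower, while of all 9023 tested it had the highest mean in 1988 and the lowest in 1532. Knock-down was then nearest in 99 and 55, the same counts as for constant 30, while of all tested it had the highest mean in 1566 and the lowest in 1627, so its share of the calls was not above its share of all tested.

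The control lines give a further point of reference that the difference did not use. The control mean lay within the range of the 6 regime means in 599 (60.0%) of the called probe sets, and in 60.8% of all tested. It lay beyond the heat selected mean, on the far side from the other regimes, in 14. The muscle lists were lower in control females than in the mean of the 6 regimes, with medians of -0.32 for the filament list and -0.32 for the Z disc list, so the heat selected lines lay further from control than from the other regimes. For complex I and for complexes II to V the control medians were -0.06, and for chorion 0.17.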

How the data were processed

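The authors deposited log2 expression values of Affymetrix probe sets, made with GCRMA (background correction, normalization and summary) per the submitters' processing notes. The sources used here do not state its version, settings or scan dates. That the deposited values are log2 follows from their range, with array medians between 5.46 and 5.57, and they were not normalized again. Total RNA (5 micrograms) had been primed with oligo-dT and labelled with biotin, per the labels' protocols.

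The table held 14010 probe sets. The 44 control probe sets were left out, and the rest were kept where at least 3 of 24 arrays had a log2 value over 4. Gene names came from the platform annotation, updated through gene identifiers. Of the tested probe sets 8068 named 1 gene, 222 several and 733 none. In lists, a gene was represented by its probe set of highest mean.

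Limma 3.58.1 in R 4.3.3 fitted 1 mean per group to the 24 arrays (16 residual and 3.56 prior degrees of freedom, median residual SD 0.12). The heat selected mean minus the average of 6 regime means was tested two-sided, with Benjamini-Hochberg adjustment over 9023 probe sets. The threshold for a call was 0.05. Errors are standard errors of the fit. On simulated data with 200 changed probe sets in each of 20 draws over 9023 probe sets, the fit of this comparison recovered 87.5% of differences of 0.5, 97.5% of differences of 1 and 99.6% of differences of 2, and 5.83% of calls were false. Real probe sets vary together, which the simulation did not. The simulated arrays were also all equally noisy, so the 5.83% is not an estimate for the calls reported here.

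Genes were named by rule: among called probe sets of 1 gene whose 3 heat selected values all lay beyond the 6 regime means, the 12 largest rises and falls, and the 6 largest of each that carry a gene name and not only a CG or CR number, plus up to 4 members per list by p or those needed for its count. Members and lists were chosen with earlier results of these data known. The labels do not say whether replicate numbers pair lines across regimes, and the fit reported used no pairing. Of 84 pairs of arrays with the same number in different groups, 34 correlated above 0.1 in their deviations from the group means. The median correlation was 0.07 for these 84 pairs and -0.02 for pairs of unlike number. Only 1 of the 3 heat selected arrays correlated best with its own number. A weak effect shared by number therefore remains possible, and a fit with the number as a block gave 1239 calls. The number of arrays limits the precision. Alternatives were other filters, normalizations, weights, covariates and left-out arrays or regimes. No sequence was used.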

Additional observations from a re-analysis of the deposited data

How the results depend on the processing

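Of the calls, 998 in the fit reported, the number moved to 2 with the RNA quality measure as a covariate, 595 with array weights and 2793 without a filter on low values. Leaving out 1 array gave 2 to 1464 calls, with 2 without heat selected replicate 2 and 649 without replicate 1. Leaving out heat selected replicate 2, cold replicate 3 and knock-down replicate 2 together, chosen after seeing the data, gave 146. All 998 kept their direction in each of these settings. Of the calls 63.3% were higher, against 32.6% with median centring (235 higher, 486 lower), 54.8% with quantile normalization, 53.8% with a filter at 6 and 81.1% without a filter. Median centring moved the median of all tested probe sets to -0.01, against 0.04. The untested dim probe sets averaged 2.95, 3.07 and 2.99 on the heat selected arrays, against 2.81 to 3.04 on the 18 others. The replicate block gave 1239 calls. The F test among the 6 regimes called 0 without the control arrays, 5 with array weights, 0 without those 3 arrays, 0 with median centring, 2 with quantile normalization, 2 with the replicate block, and 0 to 2 when 1 array was left out. The median of the ribosomal protein list was 0.09 with the RNA quality covariate, 0.07 with median centring and 0.08 with quantile normalization. No named gene reversed. The cause of these changes was not tested. The number of lines, 3 a group, limits the precision.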

Other observations

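Heat selected replicate 1 stood apart from the other 2 heat selected arrays in cuticle genes. Acp65Aa, a cuticle protein gene, measured 7.78, 2.98 and 3.07 in heat selected females, against 2.71 to 4.25 on the 18 arrays of the other regimes. Cpr92F, another cuticle protein gene, measured 7.05, 3.87 and 3.76, against 3.29 to 4.51. Replicate 1 lay above all 18 arrays for both genes, and replicates 2 and 3 lay within their range. The differences were 1.38 for Acp65Aa (adjusted p = 0.136) and 1.11 for Cpr92F (adjusted p = 0.0730), so neither was called. Of the 29 tested cuticle genes 3 rose (10.3%) and 1 fell (3.45%), against 7.00% and 4.06% of all probe sets tested. Of those that rose, 2 were also highest in replicate 1, Cpr100A with 5.21, 4.47 and 4.26 and Cpr97Eb with 5.02, 4.22 and 3.97. These genes were chosen after their values were seen, except for the members called in their list. Of the lists, antimicrobial peptide genes varied most over the 18 arrays of the other regimes, also between arrays of the same regime. The mean of 5 such genes was 6.22, 6.91 and 6.40 in heat selected females, against 5.74, 6.40 and 10.70 as the lowest, median and highest elsewhere. Constant 30 replicate 3 was the array at 10.70, beside 7.48 and 6.40 in constant 30 replicates 1 and 2. None of the 5 was called.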
